A study of Mus musculus with 9 samples.

Results

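Fatty acid oxidation enzymes were described in whole mouse lung through 9 listed genes, Acaa2, Acadl, Acadm, Acads, Hadha, Cpt1a, Cpt2, Ehhadh and Decr1. They were taken as every probe set whose annotation gave 1 of these symbols and no other. The array carried 8 of the 9 genes, all but Hadha, on 10 of its 12422 probe sets, and 8 probe sets of 7 genes were bright enough to be tested among 7920 in all. The list was chosen from the differences that these arrays show between the groups, so the members' values below are a description of the same arrays and carry no p-value.

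Lung total RNA of C57BL6 mice was measured on 9 one-colour Affymetrix arrays in a model of asthma induced with ovalbumin (OVA), a chicken egg protein used as an allergen. Of the 3 groups of 3 arrays, the first was from mice given OVA and an agonist of EP3, a receptor for prostaglandin E2 (below, the agonist group), the second from mice given OVA alone, and the third from mice given saline. The titles of the OVA groups carry a time of 24 h, and the labels name neither the compound, its dose and timing nor the age and sex of the mice. Nothing in the labels ties each array to a mouse of its own, so p-values measure the spread between these arrays, which may be technical.

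Mitochondrial fatty acid oxidation brings long-chain acyl groups across the mitochondrial membranes on carnitine and then shortens them in repeated cycles, each of which yields acetyl-CoA and reduced cofactors. Cpt1a on the outer membrane makes acylcarnitine and is the controlled, rate-limiting entry step. Cpt2 on the inner membrane turns acylcarnitine back into acyl-CoA. The acyl-CoA dehydrogenases Acadl, Acadm and Acads act on long, medium and short chains, Hadha is a subunit of the trifunctional protein that carries out later steps for long chains, and Acaa2 is a thiolase of the last step. Decr1 prepares unsaturated fatty acids for the cycle, and Ehhadh belongs to the parallel pathway in peroxisomes. Many of these genes are targets of PPARA, a nuclear receptor activated by fatty acids. In the lung, fatty acids serve both as fuel and as material for the lipids of surfactant.

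RefSeq promoter windows of GRCm38.p6, from 250 bases before to 50 bases after the annotated start, matched 7 of the 9 listed genes by symbol. A PPAR response element of the DR1 type, searched on both strands as AGGTCANAGGTCA, matched none of these 7 windows and 0.0396% of all 32851 windows. Its repeated unit AGGTCA, which a DR1 match also contains, matched the windows of Cpt1a and Acadm, against 16.3% of all windows. GGGCGG, the GC box, matched the windows of Acadl, Acads, Hadha, Cpt1a, Cpt2 and Ehhadh, against 35.7% of all windows, and CCAAT matched those of Cpt1a and Ehhadh, against 37.4%. The windows of Cpt1a (chr19:3323051-3323350, plus strand) and Acadm (chr3:153944594-153944893, minus strand) are printed because both genes had all OVA arrays below all saline arrays and because, of the 7 windows, these hold the AGGTCA unit. Each reads 5′ to 3′ on the gene's strand, with the annotated start at position 0 and every match to a searched motif in capitals.
Cpt1a: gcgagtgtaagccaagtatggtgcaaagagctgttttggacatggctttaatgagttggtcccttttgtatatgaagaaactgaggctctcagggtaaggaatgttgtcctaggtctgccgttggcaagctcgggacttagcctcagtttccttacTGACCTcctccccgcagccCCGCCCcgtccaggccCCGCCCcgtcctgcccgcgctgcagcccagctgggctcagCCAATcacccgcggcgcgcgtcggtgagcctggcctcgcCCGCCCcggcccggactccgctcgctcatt
Acadm: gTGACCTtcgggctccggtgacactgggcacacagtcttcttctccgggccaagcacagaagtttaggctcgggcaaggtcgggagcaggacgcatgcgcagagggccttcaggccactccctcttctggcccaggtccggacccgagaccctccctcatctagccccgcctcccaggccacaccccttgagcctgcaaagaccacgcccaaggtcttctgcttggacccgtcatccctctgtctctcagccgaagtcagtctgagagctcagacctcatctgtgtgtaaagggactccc
In Cpt1a the AGGTCA unit lies on the opposite strand at position -94 (its leftmost base), GC boxes lie on the opposite strand at -75, -59 and 20, and CCAAT lies at -19. In Acadm the only match is AGGTCA on the opposite strand at -249. A match describes letters in a window and not a site in use. The exact DR1 letters are so rare among all windows that 7 windows without them do not show that these genes lack such elements.

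Values below are the deposited intensities after each array was brought to the same mean. These scaled intensities are linear and have no unit, and a probe set's level is set only against its own level on other arrays. A value under 44.7, the 40th percentile of all scaled values, was taken as not above background. The deposited arrays needed scale factors of 0.741 to 1.29, and 59.6% to 60.6% of probe sets lay above the limit on each array. The definition of the limit largely fixes the average of this share, so only its range describes the arrays. The log2 profiles of arrays of the same group correlated at 0.879 to 0.926 across probe sets, and those of different groups at 0.814 to 0.923. With limma at an adjusted p under 0.05, 752 probe sets differed between OVA and saline lungs (402 higher, 350 lower), 218 between agonist and OVA lungs (99 higher, 119 lower) and 6 between agonist and saline lungs (3 higher, 3 lower). At an unadjusted p under 0.05 there were 2302, 1919 and 611. The number of calls changed strongly when an array was left out, which also leaves fewer arrays to test with. It went to 80 for OVA against saline without OVA replicate 1, and for agonist against OVA to 7 without OVA replicate 1 but to 526 without agonist replicate 3.

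Of the carnitine steps, Cpt1a was the member in which the groups stood farthest apart. Its scaled intensity was 781, 876 and 723 in agonist lungs, 517, 468 and 535 in OVA lungs, and 779.8, 736 and 767 in saline lungs. All 3 OVA arrays lay below every other array, while agonist and saline arrays overlapped. The means were 793 ± 77.2 in agonist lungs, 507 ± 34.6 in OVA lungs and 761 ± 22.4 in saline lungs (SD, n = 3 each). In OVA lungs Cpt1a was 1.50-fold lower than in saline lungs, a log2 change of -0.59 ± 0.10 (SE). Among arrays with the same replicate number this log2 change was -0.59, -0.65 and -0.52. The labels do not say what a shared number means. Changes within replicate numbers, here and below, are therefore 1 of several possible pairings and not matched pairs. In agonist lungs Cpt1a was 1.56-fold higher than in OVA lungs, a log2 change of 0.64 ± 0.10, with 0.60, 0.90 and 0.43 within replicate numbers. Between agonist and saline lungs the log2 change was 0.06 ± 0.10.

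Cpt2, the partner of Cpt1a on the inner membrane, did not separate the groups as Cpt1a did. On its brighter probe set it read 361, 301 and 420.3 in agonist lungs, 259, 365 and 277 in OVA lungs, and 272, 301 and 352 in saline lungs. The 3 groups overlapped, with 1 OVA array above all saline arrays. The log2 change was -0.05 ± 0.18 for OVA against saline and 0.27 ± 0.18 for agonist against OVA. The second comparison had both signs within replicate numbers, at 0.48, -0.28 and 0.60. The other Cpt2 probe set lay between -8.37 and 4.78 on the 9 arrays and was not above background on any of them. Slc25a20, the carrier that exchanges acylcarnitine for carnitine between the sites of Cpt1a and Cpt2, is named here after its values were seen. It read 317, 246 and 229 in agonist lungs, 187, 178 and 192 in OVA lungs, and 232, 209 and 218 in saline lungs. The OVA arrays were again the lowest 3, but neither comparison passed the test, with log2 changes of -0.24 ± 0.13 for OVA against saline (limma adjusted p = 0.246) and 0.49 ± 0.13 for agonist against OVA (adjusted p = 0.0755).

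**Figure D1:**
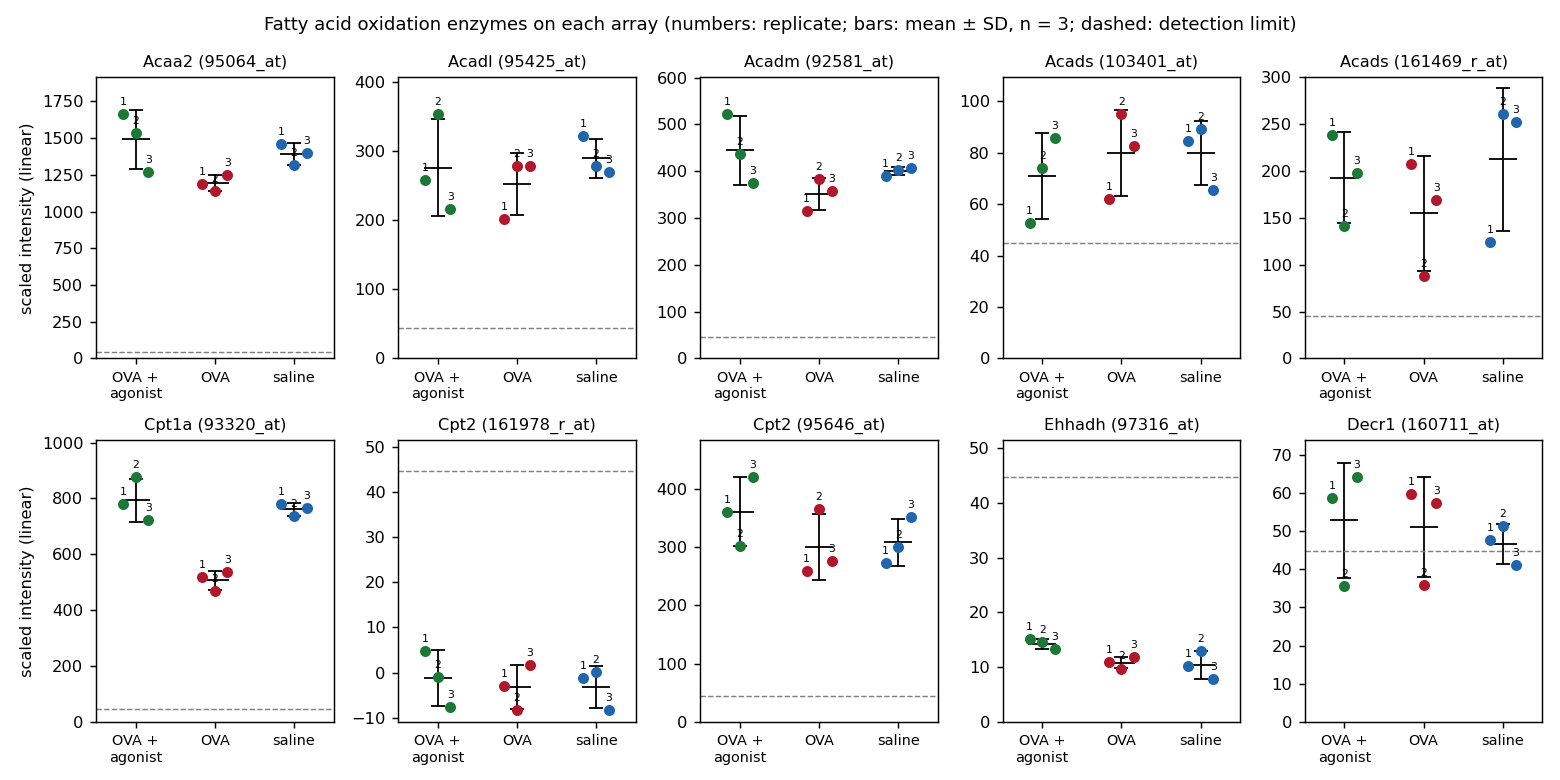
Scaled linear intensity of each of the 10 probe sets of fatty acid oxidation enzymes on the 9 arrays, with a panel per probe set and its own vertical axis. Points are arrays numbered by replicate, bars are the mean ± SD of 3 arrays, and the dashed line is the detection limit of 44.7. In Cpt1a the OVA arrays, at 468 to 535, lie under all others, while Ehhadh and the dimmer Cpt2 probe set lie under the limit on every array.

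Among the enzymes of the cycle, the thiolase Acaa2 and the medium-chain dehydrogenase Acadm had the same order of groups as Cpt1a with smaller distances. Acaa2 read 1665, 1538 and 1269 in agonist lungs, 1189.5, 1142 and 1249.7 in OVA lungs, and 1463, 1316 and 1398 in saline lungs. Its OVA arrays were the lowest 3 of the 9, with agonist replicate 3 just above them. Acaa2 had a log2 change of -0.22 ± 0.11 for OVA against saline, at -0.30, -0.20 and -0.16 within replicate numbers. For agonist against OVA the log2 change was 0.31 ± 0.11, at 0.49, 0.43 and 0.02, and for agonist against saline 0.09 ± 0.11.

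Acadm read 522, 437 and 375 in agonist lungs, 314, 383 and 357 in OVA lungs, and 390.0, 403 and 406 in saline lungs. All OVA arrays lay below all saline arrays, but agonist replicate 3 fell inside the range of the OVA arrays. The log2 change was -0.19 ± 0.13 for OVA against saline, at -0.31, -0.07 and -0.19 within replicate numbers. It was 0.33 ± 0.13 for agonist against OVA, at 0.73, 0.19 and 0.07. Agonist replicate 1 was the highest array and OVA replicate 1 the lowest. Without agonist replicate 1 the log2 change of agonist against OVA was 0.21 for Acadm and 0.23 for Acaa2, and without agonist replicate 3 it was 0.45 for Acadm and 0.42 for Acaa2.

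The dehydrogenases for long and short chains did not separate the groups. Acadl, for long chains, read 258, 355 and 217 in agonist lungs, 202, 279 and 279 in OVA lungs, and 322, 278 and 269.7 in saline lungs. Its log2 change was -0.21 ± 0.21 for OVA against saline, and the values within replicate numbers were -0.68, 0.00 and 0.05. Of the OVA and saline arrays, OVA replicate 1 was the lowest and saline replicate 1 the highest. For agonist against OVA the log2 change was 0.11 ± 0.21, with 0.36, 0.34 and -0.36 within replicate numbers.

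Acads, for short chains, was read by 2 probe sets that gave opposite signs for agonist against OVA. The brighter one read 238, 142 and 198 in agonist lungs, 208, 87.9 and 169 in OVA lungs, and 124, 261 and 252 in saline lungs. Its spread within groups was the widest of the tested members, and the log2 change was -0.47 ± 0.41 for OVA against saline and 0.37 ± 0.41 for agonist against OVA. Within replicate numbers OVA against saline ran from -1.57 to 0.74. The dimmer probe set read 52.8, 74.0 and 85.9 in agonist lungs, 62.1, 95.1 and 82.7 in OVA lungs, and 84.7, 89.3 and 65.6 in saline lungs, with log2 changes of -0.01 ± 0.23 and -0.18 ± 0.23. No direction can be given for Acads from these readings.

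The accessory enzymes were dim. Decr1, the reductase for unsaturated chains, read 58.7, 35.7 and 64.2 in agonist lungs, 59.8, 35.9 and 57.4 in OVA lungs, and 47.7, 51.4 and 41.0 in saline lungs. These values lie on both sides of the detection limit, and the log2 change was 0.10 ± 0.27 for OVA against saline and 0.04 ± 0.27 for agonist against OVA. Ehhadh read 15.0, 14.5 and 13.3 in agonist lungs, 10.9, 9.73 and 11.7 in OVA lungs, and 10.2, 13.0 and 7.89 in saline lungs. All 9 Ehhadh readings were below background, so no fold is given and nothing is read from their order.

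Over the 7 tested genes, with the brightest probe set of each, the median log2 change for OVA against saline was -0.21 (range -0.59 to 0.10), with 6 genes below 0 and 1, Decr1, above it. The median of all 7920 tested probe sets was -0.08. Of the 8 tested probe sets, 1 was called lower and 0 higher in OVA lungs, beside 9.49% of all probe sets called in either direction, and the one called was Cpt1a. OVA and saline arrays did not overlap in 3 of the 8, Cpt1a, Acaa2 and Acadm, beside 37.6% of all probe sets. The list was drawn with this comparison in view, so these counts support nothing further.

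In agonist against OVA lungs the median log2 change of the 7 genes was 0.31 (range 0.04 to 0.64), with 7 above 0, against 0.06 over all tested probe sets. With Acads taken from its dimmer probe set, 6 genes lay above 0 and 1 below, with a median of 0.27 and a range from -0.18. Of the 8 probe sets, 1 was called higher and 0 lower, again Cpt1a, beside 2.75% of all probe sets. Agonist and OVA arrays did not overlap in 2 of the 8, Cpt1a and Acaa2, beside 29.9%. For agonist against saline the median was 0.09 (range -0.10 to 0.22), with 5 genes above and 2 below 0, against -0.00 over all. None of the 8 was called, beside 0.0758%, and none was apart, beside 13.7%. The comparisons share arrays: a low reading in OVA lungs lowers OVA against saline and raises agonist against OVA in the same step.

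The call of Cpt1a depended on which arrays were kept, while the size of its change moved little. With each of the 9 arrays left out in turn, the log2 change of Cpt1a stayed between -0.63 and -0.53 for OVA against saline and between 0.57 and 0.71 for agonist against OVA. Cpt1a was still called lower in OVA than in saline lungs in 4 of those 9 fits, but not without any 1 of the saline arrays or without OVA replicate 1 or 2. It was called higher in agonist than in OVA lungs in 2 of the 9 fits, those without OVA replicate 3 and without agonist replicate 3, and it was not called when the 6 arrays compared were fitted alone. Acaa2 was called higher in agonist than in OVA lungs in 1 of the 9 fits, without agonist replicate 3.

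**Figure D2:**
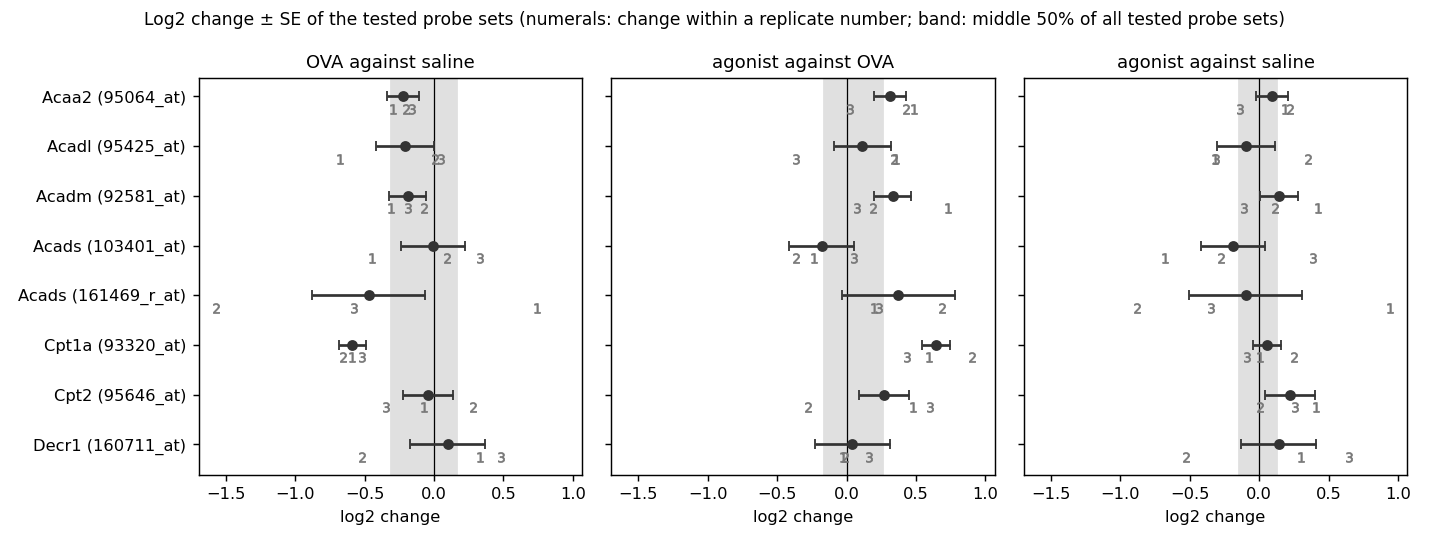
Log2 change ± SE (dots and bars) of the 8 tested probe sets in 3 comparisons, with numerals for the log2 change within each replicate number and a grey band for the middle 50% of all tested probe sets. Cpt1a lies at -0.59 for OVA against saline, at 0.64 for agonist against OVA and at 0.06 for agonist against saline. Its numerals stay on one side of 0 in the first and second panels, as do those of Acaa2 and Acadm. In both panels those of Acadl, Cpt2, Decr1 and the dimmer Acads probe set scatter to both sides. Those of the brighter Acads probe set do so only in the first of them. Numerals on one side of 0 do not mean that groups are apart. In the second panel the brighter Acads groups overlap, at 142 to 238 in agonist and 87.9 to 208 in OVA lungs.

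Across the 9 arrays the log2 levels of Acaa2 correlated with those of Cpt1a at Pearson r = 0.846 and with those of Acadm at r = 0.840. After each group's mean was taken out the r values were 0.662 and 0.659. Cpt1a and Cpt2 correlated at 0.155, and at -0.826 after group means were taken out. Acadl and Decr1 ran opposite ways at -0.704, and at -0.720 without group means. These values describe 9 points that share the scaling of each array.

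The genes most like the mean profile of the 7 tested members over the 9 arrays were Gabarapl1 and Gstz1 (r = 0.981 each), Hpgd (0.975), Ilkap (0.971), and Flvcr2 and Cyp4b1 (0.970 each). Gabarapl1 belongs to the ATG8 family of autophagy proteins, Gstz1 works in tyrosine breakdown, and Hpgd inactivates prostaglandins, E2 included. Hpgd read 1907, 1555 and 1549 in agonist lungs, 789.9, 805 and 1067 in OVA lungs, and 1389.9, 1294 and 1499 in saline lungs. Cyp4b1, a fatty acid and xenobiotic hydroxylase of the airway, read 4536, 3895 and 3320.2 in agonist lungs, 2293, 2369.7 and 2692 in OVA lungs, and 3518, 3863 and 3897 in saline lungs. In both genes the OVA arrays were the lowest 3, as they were in the members' mean profile. These genes were picked for the highest r among all tested genes outside the members. That choice favours the same order of groups, so the order is no separate result. With group means taken out the correlations with the members were 0.857 for Hpgd and 0.936 for Cyp4b1, which the choice can raise as well.

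The other enzymes of mitochondrial beta-oxidation mostly did not pass the test. Of 16 tested genes, 1 rose and 0 fell in OVA against saline lungs and none passed for agonist against OVA, with median log2 changes of -0.08 and 0.11. The gene that rose was Acad9, an acyl-CoA dehydrogenase that is also an assembly factor of respiratory complex I. Acad9 read 123, 87.6 and 75.9 in agonist lungs, 74.3, 103 and 95.4 in OVA lungs, and 30.1, 37.0 and 35.3 in saline lungs. All saline arrays were below background, so Acad9 was at least 2.0-fold higher in OVA lungs than in saline lungs. The limma adjusted p of 0.0128 used the saline values under that limit. The call was lost without OVA replicate 2 (adjusted p = 0.0535). Of 7 genes of the carnitine shuttle and acyl-CoA synthetases, none passed in either comparison on its brightest probe set, with medians of 0.13 and -0.06. Acsl4, an acyl-CoA synthetase that prefers arachidonic acid, lay at the threshold for OVA against saline, with a log2 change of 0.79 on the brighter probe set (limma adjusted p = 0.0502) and 0.81 on a dimmer one that passed (adjusted p = 0.0382).

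The peroxisomal list held 14 tested genes, of which 0 rose and 2 fell in OVA against saline lungs and 1 rose in agonist against OVA lungs, with median log2 changes of -0.11 and 0.17. Cat, the catalase that breaks down the peroxide made by peroxisomal oxidation, read 736, 708 and 569 in agonist lungs, 356, 324 and 421 in OVA lungs, and 719.6, 697 and 746 in saline lungs. The OVA arrays stood clear below the others. Cat fell in OVA lungs by 0.98 ± 0.13 on the log2 scale (limma adjusted p = 0.0115) and rose in agonist against OVA lungs by 0.87 ± 0.13 (adjusted p = 0.0356). A second Cat probe set did not pass, with log2 changes of -0.17 (adjusted p = 0.722) and 0.07 (adjusted p = 0.902). Acaa1b, a peroxisomal thiolase, read 186, 135 and 108 in agonist lungs, 75.0, 78.1 and 68.6 in OVA lungs, and 126, 139.9 and 161 in saline lungs. It fell in OVA against saline lungs by 0.94 ± 0.20 (limma adjusted p = 0.0308), and agonist against OVA, at 0.92 ± 0.20, did not pass (adjusted p = 0.0557). Acaa1b has a near-identical paralog, Acaa1a, and the probes may read both. The probe set of Acaa1a did not pass in these comparisons, with log2 changes of -0.08 (limma adjusted p = 0.649) and 0.09 (adjusted p = 0.634). For OVA against saline, Cat lost its call without OVA replicate 1 (adjusted p = 0.0534) and Acaa1b without any 1 of the OVA or saline arrays (highest adjusted p = 0.0984). Between agonist and OVA lungs, Cat kept its call only without OVA replicate 3 or agonist replicate 3 (highest adjusted p = 0.131).

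The regulators of fatty acid oxidation held 10 tested genes, of which 0 rose and 1 fell in OVA against saline lungs and none passed for agonist against OVA, with medians of -0.30 and 0.18. The gene that fell was Ppara itself, at 115, 98.2 and 89.5 in agonist lungs, 77.8, 56.7 and 70.1 in OVA lungs, and 120.3, 101 and 94.2 in saline lungs. Its log2 change was -0.63 ± 0.16 for OVA against saline (limma adjusted p = 0.0492) and 0.57 ± 0.16 for agonist against OVA (adjusted p = 0.0890). The call of Ppara was lost without any 1 of the 9 arrays (adjusted p = 0.0506 to 0.122).

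Other targets of the PPAR receptors had the largest medians of the 9 pathway lists for OVA against saline and agonist against OVA. Of 10 tested genes, 2 fell in OVA against saline lungs and 1 rose in agonist against OVA lungs. The median log2 change was -0.52 with 0 above 0 in the first comparison and 0.64 with 10 above 0 in the second. Acot1, a cytosolic acyl-CoA thioesterase, read 141, 183 and 110.0 in agonist lungs, 53.9, 58.4 and 64.8 in OVA lungs, and 114, 139 and 91.5 in saline lungs. Acot1 fell in OVA against saline lungs by 0.94 ± 0.22 (limma adjusted p = 0.0371) and rose 2.40-fold in agonist against OVA lungs, by 1.26 ± 0.22 (adjusted p = 0.0381). It has close paralogs that the probes may read too. Fabp3, a fatty acid binding protein of muscle, read 57.7, 54.5 and 54.0 in agonist lungs, 34.9, 22.7 and 30.5 in OVA lungs, and 64.4, 45.3 and 76.2 in saline lungs. All OVA arrays were below background, so Fabp3 was at least 1.35-fold lower in OVA lungs than in saline lungs. The limma adjusted p of 0.0292 used the OVA values under that limit. With the floor raised to the 40th percentile, the Fabp3 call was lost. Acot1 lost its OVA against saline call without any OVA or saline array or agonist replicate 1 (highest adjusted p = 0.124), and its agonist against OVA call in every fit but that without agonist replicate 3 (highest 0.142). Fabp3 lost its call without any OVA array or saline replicate 1 or 3 (highest 0.0822).

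In fatty acid uptake and release, 13 genes were tested. For OVA against saline 1 rose and 2 fell, with a median log2 change of -0.29, and for agonist against OVA 1 rose and 1 fell, with a median of 0.42. Cd36, a fatty acid translocase, read 144, 128 and 125 in agonist lungs, 111, 89.9 and 90.0 in OVA lungs, and 151, 129.8 and 150.1 in saline lungs, and it fell in OVA against saline lungs by 0.57 ± 0.12 (limma adjusted p = 0.0311). Fabp3, above, was the other gene that fell. Fabp5, the epidermal fatty acid binding protein, ran the opposite way, at 273, 216 and 205 in agonist lungs, 362, 397 and 361 in OVA lungs, and 251, 204 and 216 in saline lungs. Fabp5 rose in OVA against saline lungs by 0.74 ± 0.13 (adjusted p = 0.0226) and fell in agonist against OVA lungs by 0.70 ± 0.13 (adjusted p = 0.0446). Lpl, the lipase that frees fatty acids from lipoproteins, read 809.8, 742 and 739.6 in agonist lungs, 554, 573 and 593 in OVA lungs, and 541, 553 and 523 in saline lungs. Unlike Cpt1a, it stood apart in the agonist arrays, with a log2 change of 0.41 ± 0.08 for agonist against OVA (limma adjusted p = 0.0444) and 0.09 ± 0.08 for OVA against saline (adjusted p = 0.483). A dimmer Lpl probe set gave the same log2 change of 0.41 for agonist against OVA and did not pass (adjusted p = 0.0664). With single arrays left out, Cd36 lost its call without any OVA or saline array (highest adjusted p = 0.0939), and Fabp5 lost OVA against saline without saline replicate 2 or 3 or OVA replicate 1 or 2 (highest 0.0768). For agonist against OVA, Fabp5 lost its call in all 9 fits (highest 0.145) and Lpl in all but that without agonist replicate 3 (highest 0.156).

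In fatty acid synthesis, the opposite pathway, 1 of 14 tested genes rose in OVA against saline lungs and 1 fell in agonist against OVA lungs, with medians of -0.03 and 0.13. Both were Me1, the malic enzyme that supplies NADPH, at 248, 242 and 305 in agonist lungs, 482, 416 and 422 in OVA lungs, and 219, 199.7 and 196 in saline lungs. Me1 rose in OVA against saline lungs by 1.10 ± 0.12 (limma adjusted p = 0.00854), and kept that call without each of the 9 arrays. It fell in agonist against OVA lungs by 0.74 ± 0.12 (adjusted p = 0.0363), a call kept in 1 of the 9 fits, that without agonist replicate 3 (highest adjusted p = 0.131). In the citrate cycle, which burns the acetyl-CoA, 1 of 15 tested genes rose in OVA against saline lungs, with medians of 0.04 and 0.01. Sdhd, a membrane anchor of succinate dehydrogenase, read 604, 627 and 645 in agonist lungs, 763, 697 and 706 in OVA lungs, and 588, 531 and 596 in saline lungs. It rose in OVA against saline lungs by 0.34 ± 0.08 (adjusted p = 0.0475), and lost the call without any 1 of the 9 arrays (adjusted p = 0.0541 to 0.149). The ketone body list had 1 tested gene, Oxct1, which did not pass. No gene of these 9 lists passed for agonist against saline.

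**Figure D3:**
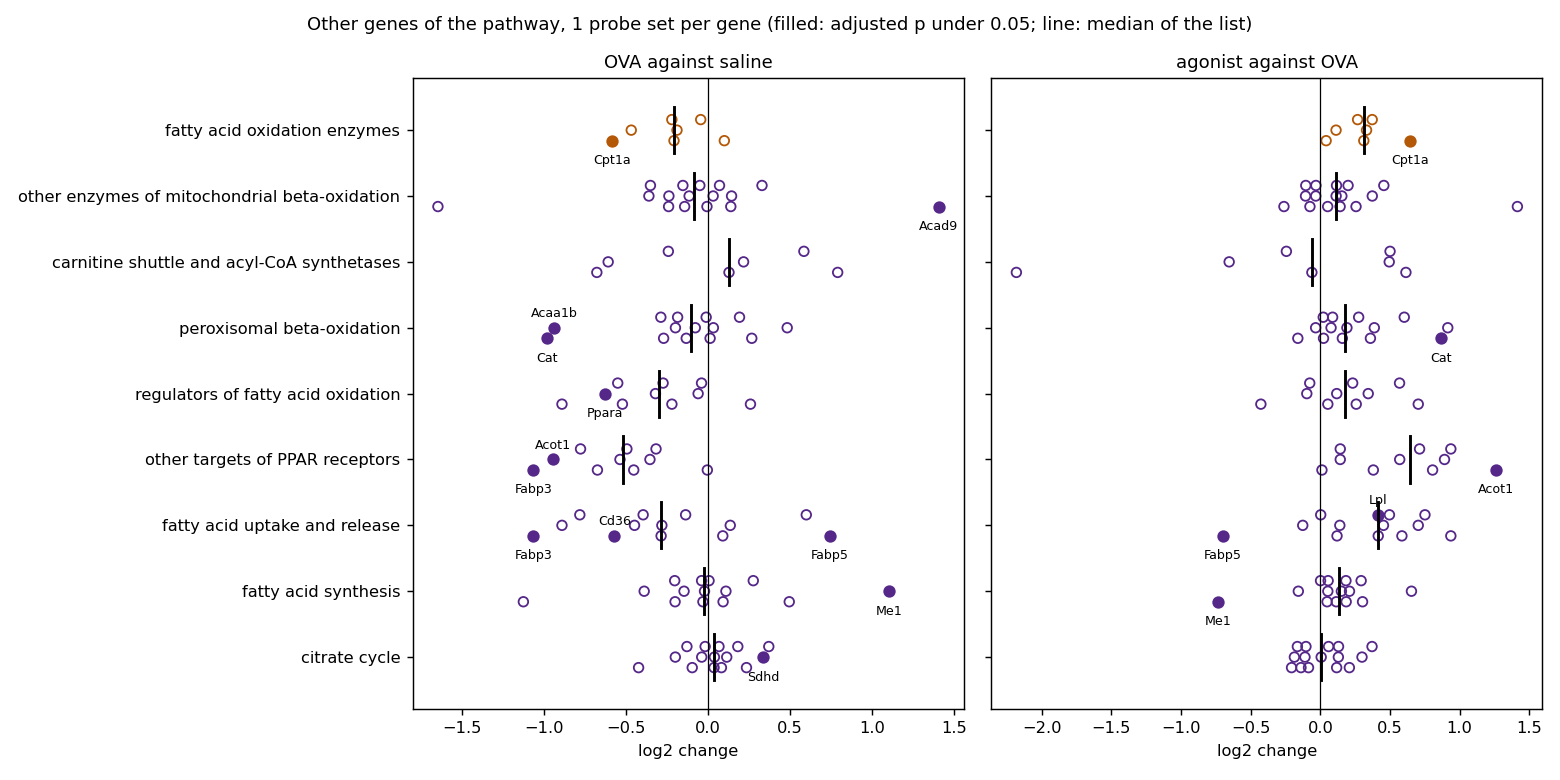
Log2 change of each tested gene (points, 1 probe set per gene) for OVA against saline and agonist against OVA, by list, with filled and named points where the limma adjusted p was under 0.05 and a vertical line at each list's median. The medians of the fatty acid oxidation enzymes are -0.21 and 0.31, those of the other targets of PPAR receptors -0.52 and 0.64, and those of the citrate cycle 0.04 and 0.01.

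Lists of cell type markers moved between the same groups. In bulk lung RNA, fewer cells of a type and less RNA per cell cannot be told apart. The summed intensity of the tested fatty acid oxidation enzymes was 3267 to 3885 in agonist lungs, 2749 to 2923 in OVA lungs and 3346 to 3485 in saline lungs. Bright genes weigh most in such a sum, here Acaa2 and Cpt1a, with means of 1359 and 687 over the 9 arrays. A lower sum therefore does not mean that every member was lower. For heart muscle, whose cells run largely on fatty acids, 14 of 22 markers on the array were tested, and 0 rose and 6 fell in OVA against saline lungs. In agonist against OVA lungs 2 of the heart genes rose and 0 fell, and the summed heart intensity was 4932 to 5768 in agonist lungs, 3630.3 to 4415 in OVA lungs and 4899 to 6097 in saline lungs. The ventricular light chains Myl2 and Myl3, together with Nppb, Ryr2, Sln, Ckm, Csrp3 and Cox7a1, were at or below background on every array. For fat, 8 of 12 markers were tested, with 0 rising and 3 falling for OVA against saline and 3 rising and 0 falling for agonist against OVA. The summed fat intensity was 1522 to 1827 in agonist lungs, 989.6 to 1128 in OVA lungs and 1431 to 1558 in saline lungs, and Retn, Cidec and Cidea were at or below background on every array. In both lists, as in Cpt1a, every OVA array lay below every other array.

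Markers of several cell types of the lung itself were also low in OVA lungs. For endothelium, 0 of 16 tested markers rose and 9 fell in OVA against saline lungs, and 3 rose and 0 fell for agonist against OVA. Its summed intensity was 18472 to 19411 in agonist lungs, 14012 to 15536 in OVA lungs and 19029 to 19263 in saline lungs. For alveolar type 1 cells, 5 of 6 fell in OVA against saline lungs. For agonist against OVA only Cav1 rose (limma adjusted p = 0.0444), and its second probe set did not pass (adjusted p = 0.215). The sums of this list were 15000.3 to 16465 in agonist lungs, 11396 to 12665 in OVA lungs and 15571 to 17192 in saline lungs. For club and ciliated cells, 1 rose and 4 of 7 fell, then 2 rose for agonist against OVA, with sums of 25543 to 27852 in agonist lungs, 18549 to 21591 in OVA lungs and 24504 to 28978 in saline lungs. For alveolar type 2 cells, which make surfactant and mark the tissue as lung, 1 rose and 1 fell of 8, and none passed for agonist against OVA. Their sums were 29328 to 29669.8 in agonist lungs, 23137 to 26483 in OVA lungs and 25985 to 29748 in saline lungs.

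Macrophage and dendritic cell markers ran the other way, with 10 of 15 rising and 1 falling in OVA against saline lungs, and 1 rising and 2 falling in agonist against OVA lungs. Their summed intensity was 13087 to 18189 in agonist lungs, 19022 to 20168 in OVA lungs and 11306 to 12152 in saline lungs. The highest of the agonist arrays was replicate 3. T and B cell markers (7 tested) had no gene past the test, with sums of 907 to 1446 in agonist lungs, 1220.5 to 1392 in OVA lungs and 1164 to 1366 in saline lungs. Granulocyte markers (7 tested) had none either, but their sums were uneven in agonist lungs, at 4848, 1459 and 4438 on replicates 1, 2 and 3, against 1235 to 1419 in OVA lungs and 1286 to 1309 in saline lungs. Agonist replicates 1 and 3 thus stood above the other 7 arrays. Replicate 1 was the agonist array with the highest Acaa2 and Acadm, and replicate 3 the one with the lowest. Markers at or below background on every array were Marco and Fcer1g of macrophages, Tppp3 of ciliated cells, Cd3e, Cd3g, Cd8a and Cd8b1 of T cells, and Ngp, Prg2, Epx and Il5ra of granulocytes. No gene of any marker list passed for agonist against saline.

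The marker counts also changed strongly when an array was left out. For OVA against saline, leaving out OVA replicate 1 or 2 or any saline array brought the number that fell to 1 for heart muscle, 0 to 2 for fat, 0 or 1 for endothelium, 0 for alveolar type 1 cells and 0 or 1 for club and ciliated cells, and the number of macrophage and dendritic cell markers that rose to between 2 and 5. In agonist against OVA lungs, leaving out agonist replicate 1 or 2, OVA replicate 1 or 2 or any saline array left 0 or 1 rising for heart muscle, 0 to 2 for fat, and 0 for endothelium, alveolar type 1 cells and club and ciliated cells. Without agonist replicate 3, 8 macrophage and dendritic cell markers fell in that comparison, and without agonist replicate 2, 2 granulocyte markers rose. Other probe sets of Sox17, Sox18, Cav1, Aldh1a1 and C1qb did not pass where the brightest did, and a dimmer probe set of Tie1 passed where the brightest did not. The settings for marker lists were chosen after the data were seen. The part of these cell types in the values of the fatty acid oxidation enzymes was not tested.

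**Figure D4:**
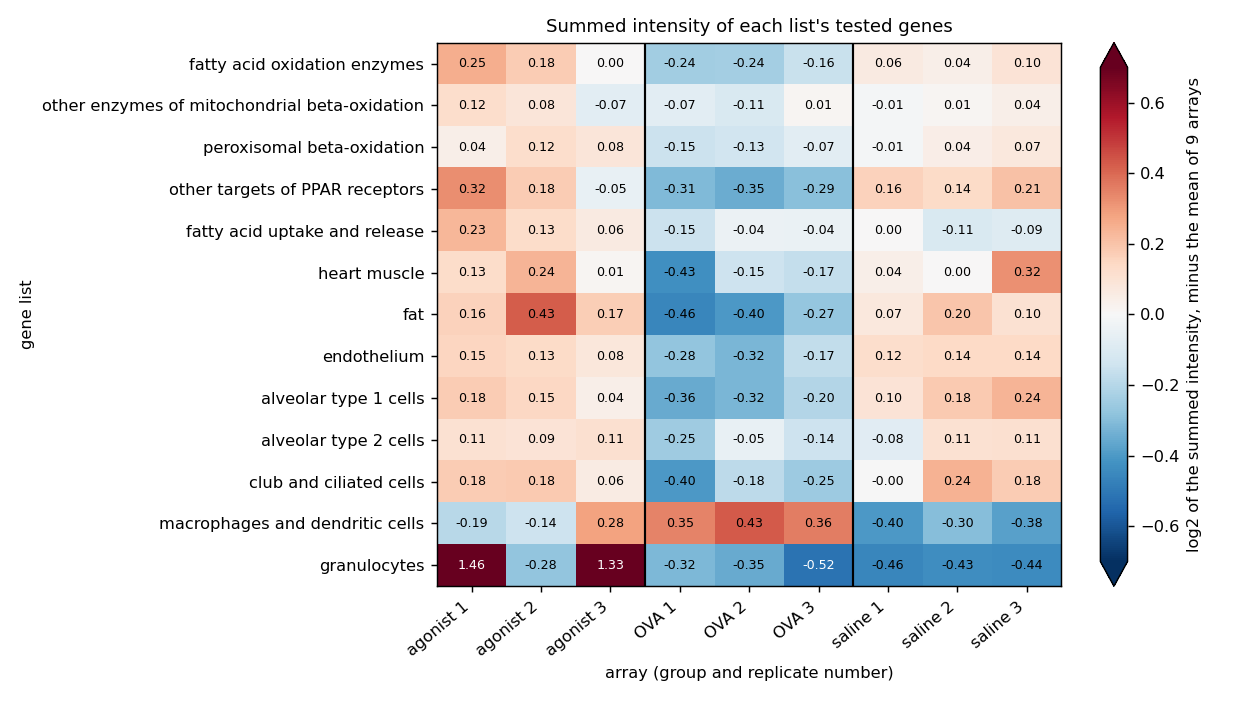
Log2 of the summed intensity of each list's tested genes on each array, minus the mean of the 9 arrays, with columns for arrays and rows for lists. Bright genes weigh most in each sum. The fatty acid oxidation enzymes, at -0.24 to -0.16, are low on the OVA arrays. So are other targets of PPAR receptors, heart muscle, fat, endothelium, alveolar type 1 cells, and club and ciliated cells. Macrophages and dendritic cells, at 0.35 to 0.43 on the OVA arrays, are high.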

How the data were processed

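Total lung RNA of 9 samples, 3 in each of the agonist, OVA and saline groups of the labels, had been hybridised to one array each. The deposited values are linear intensities per probe set, with values below 0. How they were scanned, background-corrected and summarised is not given in the sources used here. Probe sets were named from the platform annotation, which gave 1 symbol to 10833, several to 396 and none to 1193, and 66 control probe sets were left out of the tests. The members and all gene lists were chosen with earlier results of these data known.

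Each array was scaled to the mean of the 9 trimmed means (2% trimmed, 138.7 to 241.2 as deposited). Values under the 20th percentile (3.10) were raised to it before log2. Testing of a probe set required at least 3 arrays above the 40th percentile (44.7). One limma 3.58.1 fit in R 4.3.3 (lmFit, eBayes, 6 residual and 1.69 prior degrees of freedom) covered all 9 arrays, two-sided, with Benjamini-Hochberg adjustment over 7920 probe sets and a threshold of 0.05. It was tested on simulated data. Where all arrays of one group lay at or under the limit, a fold is given as "at least" against that limit. The number of arrays limits the precision.

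From each of 9 pathway and 9 marker lists, up to 4 genes per comparison were picked by size of change among those past the threshold. Where fewer than 2 passed, the brightest tested gene was added. The brightest probe set of a gene was used, and not all picked genes are printed here. The 6 genes most like the members were those with the highest Pearson r with the mean of their standardised profiles. Alternatives were other scalings, floors, filters, variance models, array weights, the 6 arrays compared alone, the replicate number as a block, and leaving out each array in turn. Deviations of same-numbered arrays from their group means correlated at -0.139 to 0.169. They lay above 0.1 for OVA and saline arrays numbered 1 (0.169) and 2 (0.112) and in no other pair. Same-numbered arrays were therefore not treated as pairs in the main fit. Coordinates are those of the RefSeq promoter table.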

Additional observations from a re-analysis of the deposited data

How the results depend on the processing

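The median log2 change of the fatty acid oxidation enzymes kept its sign in every alternative run. With each array left out in turn it ran from -0.25 to -0.11 for OVA against saline, from 0.21 to 0.35 for agonist against OVA and from 0.02 to 0.12 for agonist against saline. Of single members, Acadl, Acads, Cpt2 and Decr1 changed sign in some alternatives of at least 1 comparison, with Decr1 for agonist against OVA between -0.19 and 0.30. Cpt1a changed sign in 1, for agonist against saline (-0.02). Over the genes picked from the pathway and marker lists that passed the test, some of them not printed here, the call held in 613 alternatives. It was lost in 404, with no change of sign. The numbers of probe sets called moved far more. For OVA against saline (752) they were 80 to 857 with single arrays left out, among them 150, 138 and 126 when saline replicate 1, 2 or 3 was dropped, and 103 when OVA replicate 2 was. For agonist against OVA (218) they were 7 to 526 with single arrays left out, 361 with the floor at the 40th percentile, 445 with the filter at the 60th percentile, 453 with an intensity trend and robust prior, 498 with array weights and 15 with the 6 arrays compared alone. For agonist against saline (6) they were 5 to 16 with single arrays left out, 3 with the 60th percentile filter and 3 with the 6 arrays alone.

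With the replicate number as a block, the counts were 50 for OVA against saline, 14 for agonist against OVA and 2 for agonist against saline, and Cpt1a was no longer called in either comparison that had called it. The labels do not say what a shared number means, and deviations of same-numbered arrays from their group means correlated at 0.0354 to 0.169, -0.0661 to 0.00694 and -0.139 to 0.0779 in the same 3 comparisons. The cause of these shifts in counts was not tested. Ehhadh and 1 probe set of Cpt2 were not above background on any array and Decr1 lay around the limit, so signal limits what can be said of them.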
